A study of Caenorhabditis elegans with 20 samples.

Results

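The comparison of *ahr-1(ju145)* with wild-type worms in the absence of any added compound, with vehicle alone, rests on 10 of the 20 arrays of the series. Strain CZ2485, which carries the allele *ahr-1(ju145)*, and strain N2, the wild-type, had 5 arrays each. Both were kept on plates with 0.1% DMSO from the egg stage to day 3, and total RNA of whole worms was hybridised to an Affymetrix gene array of *Caenorhabditis elegans*. By the methods, replicates were separate pools of worms. Members were chosen by strain and vehicle alone, without regard to any measured value. The allele was present in a single strain, so an effect of *ahr-1* and a difference in the rest of the genome between CZ2485 and N2 cannot be told apart. The other 10 arrays came from the same strains with 100 µM curcumin in place of DMSO alone, and they serve below as a separate set of arrays for the same contrast.

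AHR-1 is the nematode aryl hydrocarbon receptor, a transcription factor of the bHLH-PAS family that binds DNA as a dimer with AHA-1, the counterpart of mammalian ARNT. In mammals the receptor is best known for switching on detoxification enzymes in response to dioxins and dietary compounds. In *C. elegans* it does not bind dioxin and is known mainly for the fate and outgrowth of particular neurons, among them oxygen-sensing neurons, touch neurons and GABA motor neurons, and for social feeding, ageing and stress responses.

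Loss of *ahr-1* was accompanied by more decreases than increases (plot of change against level). Of 29317 probe sets, 471 (1.61%) were lower and 147 (0.501%) were higher in *ahr-1(ju145)* at an adjusted p under 0.1, the threshold of the study's methods (limma with the replicate number as a block, Benjamini-Hochberg over all probe sets). The decreases were the larger changes as well, with a median log2 fold change of -0.60 against 0.45 for the increases. A change of at least 2-fold was seen in 82 of the probe sets that were lower and in 17 of those that were higher. All arrays of one strain lay on the same side of all arrays of the other for 304 of the 471 and for 85 of the 147. Over all probe sets, groups without overlap were found in 537 (1.83%) in the lower and 374 (1.28%) in the higher direction. The median log2 fold change of all probe sets was 0.02. At an unadjusted p under 0.05 the directions were nearly even, with 2046 (6.98%) lower and 2037 (6.95%) higher.

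**Figure D1:**
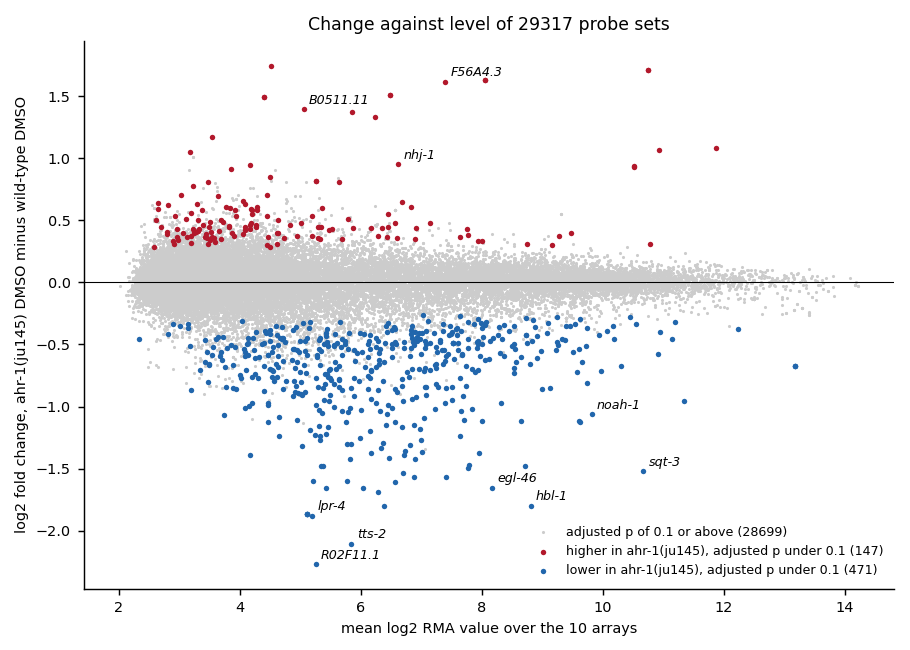
Log2 fold change of each probe set (*ahr-1(ju145)* minus wild-type, both with DMSO) against its mean log2 RMA value over the 10 arrays. Red points mark the 147 probe sets that were higher and blue points the 471 that were lower at an adjusted p under 0.1, and the blue points reach further from 0 and lie at higher levels than most red ones.

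These counts depended on the arrays and on the model. Leaving out 1 replicate number with both its arrays gave between 173 and 339 lower and between 35 and 74 higher probe sets. With the mean of a list of embryo markers as a covariate, 12 lower and 3 higher probe sets passed, of which 1 and 2 were among the 471 and the 147. In that fit the median standard error was 0.188, against 0.0882 without the covariate. The median log2 fold change was -0.57 for the 471 and 0.45 for the 147, with the direction kept in all of them. All of them had 5 pairs in one direction before the covariate, so the kept direction adds no evidence. The embryo mean was nearly equal between the strains in replicate 3 alone (5.89 in *ahr-1(ju145)*, 5.90 in wild-type), so with the block this fit leans mostly on that pair. In a principal component analysis of the 10 arrays, the strains separated along the second component, which held 17.9% of the variance, and the first component (24.5%) did not separate them. On that first component replicates 1 and 5 of both strains lay at the negative end, with values of -13.6 and -25 in *ahr-1(ju145)* and -25.5 and -20.1 in wild-type. Of the 471 lower probe sets, these 2 replicates were the highest arrays of their strain for 226 (48.0%) in *ahr-1(ju145)* and for 318 (67.5%) in wild-type, against 15% and 14% of all probe sets. Their part in the decreases was not tested beyond the replicate block and the fits without each replicate.

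Markers of other stages and tissues are given first, because whole worms hold germline, embryos and somatic tissues in one extract, and in such samples fewer cells of a type and less RNA per cell cannot be told apart. Of 41 measured embryo markers, 6 (14.6%) were lower and 0 higher, against 1.68% and 0.435% of all single-symbol probe sets. Those lower included *ceh-27*, *unc-120*, *pha-4*, *cnd-1* and *vab-7*. At an unadjusted p under 0.05, 10 embryo markers were lower and 3 higher (limma), and 12 of the 41 lay above 0. The median log2 fold change of the list was -0.08. Its mean on each array lay between 5.74 and 6.03 in *ahr-1(ju145)* and between 5.84 and 6.14 in wild-type. These ranges overlap, and the mean was lower in *ahr-1(ju145)* in all 5 pairs. None of 51 germline and oocyte markers, 55 sperm markers, 5 yolk proteins, 15 intestine markers and 36 sarcomere genes passed in either direction (limma). At an unadjusted p under 0.05, 3 germline, 1 sperm and 6 sarcomere genes were higher, and 2 intestine and 2 sarcomere genes were lower. The germline and oocyte list had 45 members above 0, with a median of 0.05. Array means of this list were 10.58 to 10.66 in *ahr-1(ju145)* and 10.54 to 10.63 in wild-type, with overlap. The mean of 23 molting genes lay between 7.07 and 7.22 in *ahr-1(ju145)* and between 7.38 and 7.56 in wild-type, without overlap. The part of developmental stage or embryo content in the results below was not tested beyond the covariate above, whose fit leans mostly on replicate 3.

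**Figure D2:**
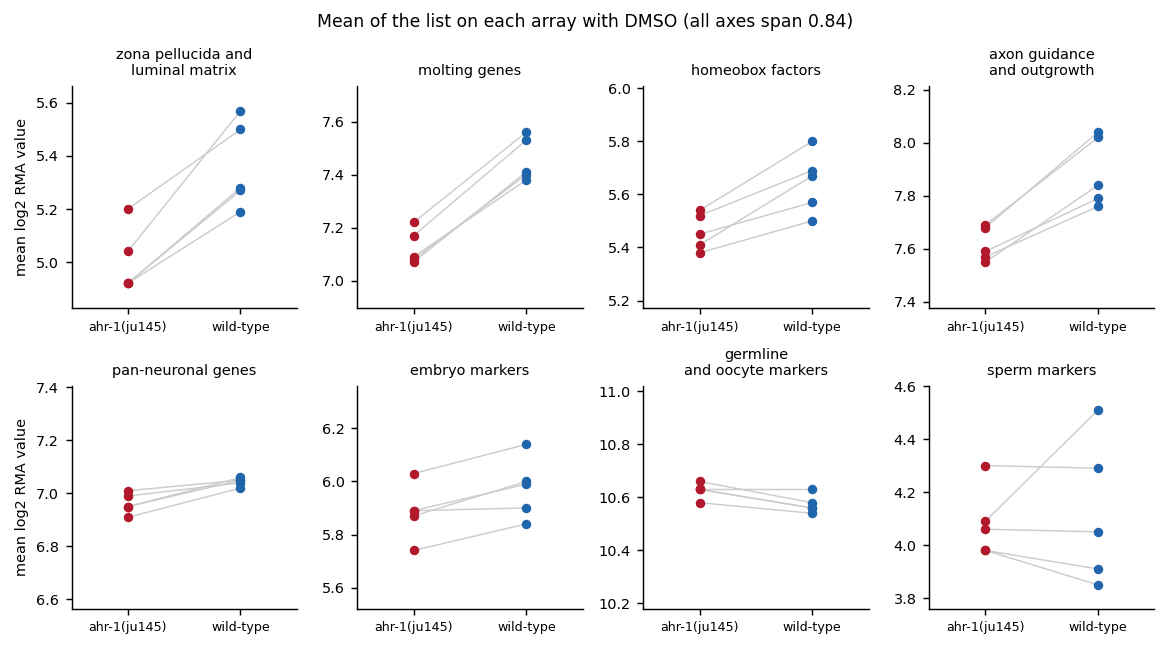
Mean log2 RMA value over the members of 8 gene lists on each array with DMSO, *ahr-1(ju145)* left (red) and wild-type right (blue), with lines joining arrays of the same replicate number. Every vertical axis spans 0.84. The strains separate for molting, axon guidance and, more narrowly, pan-neuronal genes. Ranges overlap for sperm markers and for embryo markers, although each pair of the embryo markers is lower in *ahr-1(ju145)*.

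The *ahr-1* transcript itself did not pass the test. Its log2 RMA values were 4.94, 4.27, 4.90, 4.85 and 4.98 in *ahr-1(ju145)*, against 5.20, 4.92, 5.11, 4.96 and 5.45 in wild-type. Mutant arrays were lower in all 5 pairs, yet the groups overlapped, and the log2 fold change was -0.34 ± 0.09 (SE, n = 5 pairs, limma adjusted p = 0.177). The allele *ju145* is a point mutation, so the transcript level is no check of the strain label. For *aha-1*, which encodes the partner of AHR-1, values were 7.02, 6.92, 6.93, 7.02 and 6.91 in the mutant, against 7.37, 7.22, 7.09, 7.30 and 7.38 in wild-type. Its groups did not overlap and the change of -0.31 ± 0.07 lay just inside the threshold (limma adjusted p = 0.0991), which it passed in 10 of 26 other settings. Of the 5 measured genes in a list of PAS-domain factors, *lin-42*, a period-like regulator of developmental timing, was the other that passed, with -0.84 ± 0.11 (limma adjusted p = 0.0242). *lin-42* also counts among the heterochronic genes below. The neuronal PAS genes *cky-1* and *hlh-34* did not pass.

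A set of genes had been followed up by the study's authors, by qPCR because of array results or, in the case of *gst-4*, with a fluorescent reporter. For those picked on these arrays the direction here is no independent evidence. Of the 12 that could be matched to a probe set with a single symbol, 7 were lower and 1 was higher. *F56A4.3*, a protein-coding gene with no assigned function in the annotation used here, had the largest increase among genes with a probe set of their own. Its values were 7.99, 9.04, 8.21, 8.12 and 7.63 in *ahr-1(ju145)*, against 6.74, 6.59, 6.63, 6.64 and 6.30 in wild-type. Every mutant array was above every wild-type array, and the level was 3.07-fold higher (log2 1.62 ± 0.17, limma adjusted p = 0.0123). *atf-2*, a bZIP factor, had 5.87, 5.24, 4.84, 5.4 and 6.01 in the mutant, against 7.75, 6.84, 7.28, 6.75 and 7.75 in wild-type. The groups were well apart, with a 3.49-fold lower level in *ahr-1(ju145)* (log2 -1.80 ± 0.15, limma adjusted p = 0.00619). It was the only one of the genes given here with full statistics that still passed with the embryo markers as a covariate (log2 -2.39 ± 0.23, limma adjusted p = 0.0845). That fit leans mostly on replicate 3, where *atf-2* had its largest pair difference (-2.44, against -1.88, -1.61, -1.35 and -1.74). The pass therefore does not set *atf-2* apart from the other genes. With the same covariate *sqt-3* and *hbl-1*, described below, had log2 fold changes of -1.48 ± 0.19 and -1.69 ± 0.35 and did not pass. *chtb-1* (log2 -1.68 ± 0.13), *T20F5.4* (-1.66 ± 0.20), *ptr-4* (-1.60 ± 0.12) and *dyf-7* (-1.53 ± 0.19) were lower as well, with limma adjusted p values of 0.00476, 0.0198, 0.00476 and 0.0196.

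Among the genes that were higher, coding genes were the minority. Of the 111 increases on probe sets that carry a single symbol (0.435% of 25546), 56 belonged to non-coding RNAs and 52 to protein-coding genes. Of the 428 such decreases (1.68%), 37 were non-coding RNAs and 388 were protein-coding. Over all probe sets tested, 0.936% of 5982 non-coding RNAs were higher and 0.619% were lower, while 0.276% of 18847 protein-coding genes were higher and 2.06% were lower. Array signals of the non-coding probe sets were low, with a median log2 value of 3.47 against 4.97 for the coding ones. The median signal of all calls was 4.27 for increases and 6.27 for decreases.

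*nhj-1*, which encodes a factor of non-homologous DNA end joining, was higher by a similar amount in each pair. It had 7.21, 7.07, 7.05, 7.30 and 6.86 in *ahr-1(ju145)*, against 6.07, 6.12, 6.24, 6.43 and 5.84 in wild-type. All mutant arrays lay above all wild-type arrays (log2 0.95 ± 0.07, limma adjusted p = 0.00464). *B0511.11* had 5.27, 5.93, 5.83, 5.71 and 5.99 in the mutant, against 4.15, 4.34, 5.04, 4.48 and 3.76 in wild-type, a 2.63-fold increase without overlap (log2 1.39 ± 0.20, limma adjusted p = 0.0307). The non-coding RNA *F55D12.8* had 4.49, 4.71, 4.68, 4.34 and 4.93 in the mutant, against 3.67, 3.63, 3.87, 3.25 and 4.00 in wild-type. It too was separated between the strains (log2 0.95 ± 0.07, limma adjusted p = 0.00476). The non-coding RNAs *F49E10.25* (1.17 ± 0.24), *F56D1.12* (0.91 ± 0.14) and *Y47D3B.20* (0.81 ± 0.11) were higher on the log2 scale with adjusted p values of 0.0929, 0.0365 and 0.0256.

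Most of the strongest increases fell on probe sets that carry more than 1 gene symbol and are therefore not named. Such probe sets make up 646 of those tested, and 18 of them (2.79%) were higher, with log2 fold changes between 0.35 and 1.75. They account for 13 of the 17 increases of at least 2-fold, and because some probe sets hold identical values the 18 represent 13 distinct measurements. On the arrays with curcumin, 17 of the 18 were higher at an adjusted p under 0.1, with log2 fold changes between -0.18 and 2.52 over the whole set. In comparison 3 of the 111 increases with a single symbol and 0 of the 18 without a symbol passed there.

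The largest decrease was that of *R02F11.1*, a protein-coding gene. It had 3.76, 3.71, 4.21, 4.56 and 4.33 in *ahr-1(ju145)*, against 7.13, 5.68, 6.06, 6.29 and 6.75 in wild-type, and the level was 4.81-fold lower in the mutant (log2 -2.27 ± 0.23, limma adjusted p = 0.0113). The non-coding RNA *tts-2* followed, with 5.05, 4.44, 4.27, 5.20 and 5.00 in the mutant and 7.84, 6.0, 6.25, 6.74 and 7.64 in wild-type. In both genes the strains were fully separated, and wild-type replicates 1 and 5 were the highest. For *tts-2* the log2 fold change was -2.1 ± 0.21 (limma adjusted p = 0.0103).

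**Figure D3:**
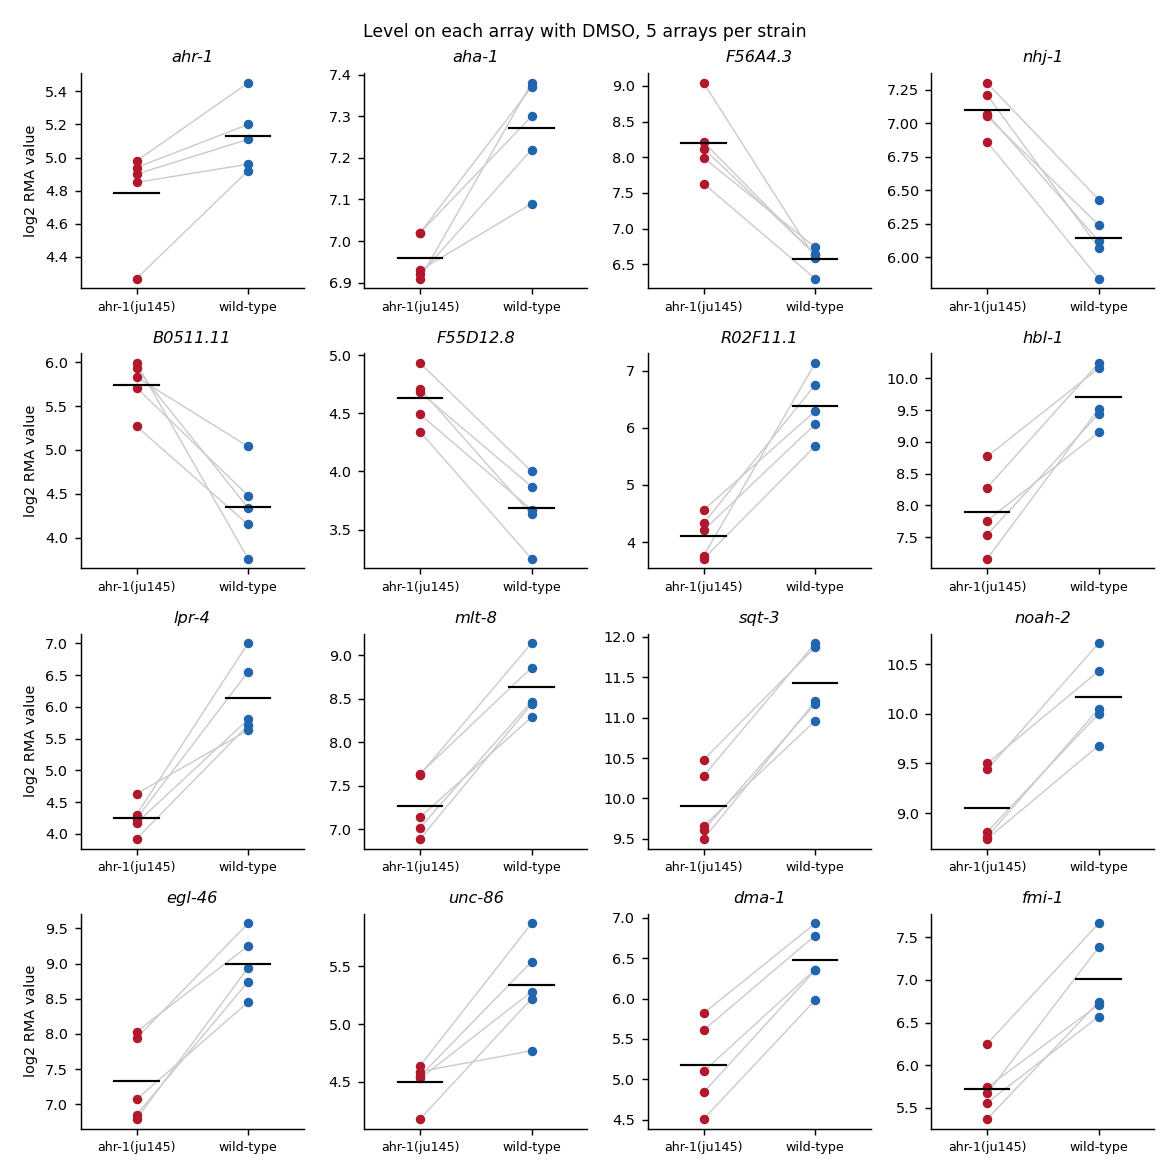
Log2 RMA value of 16 genes on each of the 10 arrays with DMSO, *ahr-1(ju145)* left (red) and wild-type right (blue), with lines joining arrays of the same replicate number and a black bar at each mean. The vertical axes differ between genes and do not start at 0. Except for *ahr-1* itself, every mutant array lies on one side of every wild-type array.

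Genes of the apical extracellular matrix were among the decreases. The gene lists of this report were chosen with earlier results of these data known, so their shares of calls are no independent evidence. For every list, the shares to set beside are 1.68% lower and 0.435% higher among all single-symbol probe sets. This matrix is secreted by epidermal and tube-forming cells, coats the outside of the embryo and larva, lines ducts and sensory pores, and is remade at each molt. Of 52 measured zona pellucida and luminal matrix genes, 14 were lower (26.9%) and 0 higher, with a median log2 fold change of -0.20. Of the 7 lipocalin-related genes, secreted proteins that keep narrow tubes such as the excretory duct open, 4 (57.1%) were lower and 0 higher, with a median of -1.27. *lpr-3* belongs to both lists. *lpr-4* had 4.3, 3.92, 4.17, 4.63 and 4.24 in *ahr-1(ju145)*, against 7.0, 5.71, 5.80, 5.63 and 6.55 in wild-type. The mutant arrays were uniformly low while wild-type arrays spread over a wider range, and the level was 3.69-fold lower (log2 -1.88 ± 0.23, limma adjusted p = 0.019). *lpr-5* (-1.66 ± 0.15), *lpr-3* (-1.57 ± 0.11) and *lpr-6* (-1.27 ± 0.16) were lower with adjusted p values of 0.00781, 0.00425 and 0.022, whereas *lpr-1*, *lpr-2* and *lpr-7* did not pass.

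The zona pellucida proteins *noah-1* and *noah-2*, components of the embryonic and molting sheath, were both lower. *noah-1* had 9.56, 9.02, 8.99, 9.04 and 9.79 in *ahr-1(ju145)*, against 10.92, 10.11, 10.16, 9.88 and 10.63 in wild-type. Every mutant array lay below every wild-type array. The change was -1.06 ± 0.09 on the log2 scale (limma adjusted p = 0.00751), and that of *noah-2* was -1.12 ± 0.08 (limma adjusted p = 0.00433). *dyf-7*, given above, encodes a related matrix protein that anchors sensory dendrites, and *cutl-28*, a cuticlin-like gene, fell by 1.48 on the log2 scale (limma adjusted p = 0.00476).

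Genes needed for molting and for the collagenous cuticle gave a mixed picture. Of 23 molting genes 7 (30.4%) were lower and 0 higher, with a median of -0.13. *mlt-8* had 7.63, 6.89, 7.02, 7.14 and 7.64 in *ahr-1(ju145)*, against 9.14, 8.44, 8.47, 8.29 and 8.86 in wild-type, without overlap (log2 -1.37 ± 0.08, limma adjusted p = 0.00219). *mlt-11*, which encodes a protease inhibitor-like protein, changed by -1.50 ± 0.12, and *acn-1*, which encodes an enzyme-like protein without peptidase activity, by -1.57 ± 0.14 (limma adjusted p = 0.00481 and 0.00751). Of 172 cuticle collagens, 7 were lower (4.07%), 0 were higher and the median was -0.02, so most collagens showed no call. Those that were lower included *sqt-3*, *dpy-17*, *dpy-2*, *dpy-14* and *col-121*. For *sqt-3*, whose product works with that of *dpy-17* in body shape, values were 10.28, 9.50, 9.61, 9.66 and 10.48 in the mutant and 11.92, 11.20, 11.17, 10.96 and 11.87 in wild-type. The decreases of *sqt-3* (log2 -1.52 ± 0.08) and *dpy-17* (-1.48 ± 0.08) had an adjusted p of 0.00131 each in limma, and *dpy-2* changed by -1.22 ± 0.11 (limma adjusted p = 0.00781). Of 39 astacin metalloproteases, *hch-1*, known for hatching and neuroblast migration, was lower and *nas-20* was higher (2.56% each).

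Hedgehog-related proteins of *C. elegans* are secreted by epidermal cells, and patched-related proteins are membrane proteins of the same tissues that act in molting and matrix export. Of 57 hedgehog-related genes 4 (7.02%) were lower and 0 higher, and of 31 patched-related genes 3 (9.68%) were lower and 0 higher. Among all single-symbol probe sets, 1.68% were lower and 0.435% higher. Medians of the lists were -0.01 and -0.10. At an unadjusted p under 0.05, 14 hedgehog-related genes were lower and 6 higher (limma), and 26 of the 57 lay above 0. For the patched-related genes, 7 were lower and 1 higher at that threshold. *wrt-10* changed by -1.09 ± 0.08 (limma adjusted p = 0.00428). *wrt-2* had 3.44, 3.30, 3.49, 3.42 and 3.69 in the mutant, against 5.41, 4.39, 4.32, 5.01 and 5.15 in wild-type (log2 -1.39 ± 0.16, limma adjusted p = 0.0157). The mutant values of *wrt-2* lay closer together than the wild-type values. *ptr-25* changed by -1.36 ± 0.17 (limma adjusted p = 0.0208).

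**Figure D4:**
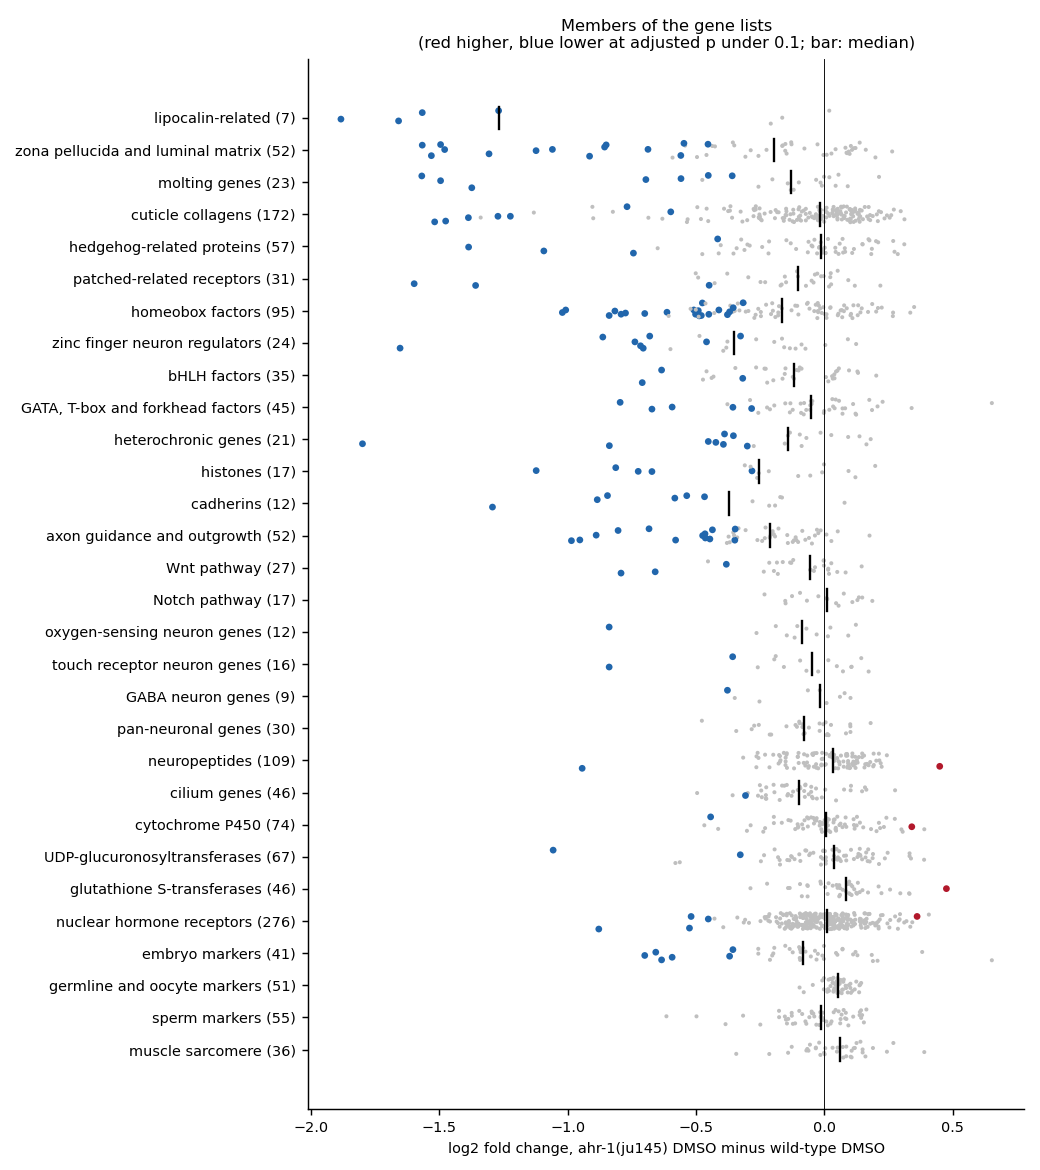
Log2 fold change (*ahr-1(ju145)* minus wild-type, both with DMSO) of every measured member of 30 gene lists, with the number of members in brackets. Each point is a probe set with a single symbol, blue or red where it was lower or higher at an adjusted p under 0.1 and grey otherwise, and black bars mark list medians. Blue points gather in the matrix, transcription factor, timing and guidance lists, and the detoxification, neuropeptide and germline lists are mostly grey.

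Among the families of transcription factors given here, the nuclear hormone receptors described below apart, the calls were decreases. Of 95 genes in the homeobox list, which does not hold every homeobox gene, 20 (21.1%) were lower and 0 higher (median -0.17). At an unadjusted p under 0.05, 43 of them were lower and 7 higher (limma). Of 24 zinc finger and other regulators of neuron differentiation 8 (33.3%) were lower and 0 higher (median -0.35). Of 35 further bHLH genes 3 were lower, *ngn-1*, *cnd-1* and *hlh-2*, and of 45 GATA, T-box and forkhead genes 5 were lower. The lists share genes, so their counts are not separate results. Among the lower factors, *ceh-27*, *vab-7*, *cnd-1*, *elt-6* and *pha-4* are also embryo markers. *nhr-25* counts in the molting, heterochronic and nuclear hormone receptor lists, and *mlt-11* in the matrix and molting lists. *egl-46*, a zinc finger factor that acts with EGL-44 in the fate of several neurons, had 7.94, 6.79, 6.85, 7.07 and 8.03 in *ahr-1(ju145)*, against 9.57, 8.94, 8.74, 8.45 and 9.25 in wild-type. All mutant arrays lay below all wild-type arrays, and the level was 3.15-fold lower (log2 -1.65 ± 0.14, limma adjusted p = 0.00623). *unc-86*, a POU homeobox gene for the fate of touch neurons and other sensory neurons, had 4.64, 4.18, 4.53, 4.59 and 4.55 in the mutant, against 5.87, 5.22, 5.28, 4.77 and 5.54 in wild-type. It too was separated, by -0.84 ± 0.15 (limma adjusted p = 0.0628), and passed in 13 of 26 other settings. *unc-42* (-1.01 ± 0.10), the thermosensory neuron factor *ttx-1* (-0.77 ± 0.08), *ceh-27* (-0.70 ± 0.06) and *ceh-32* (-0.61 ± 0.06) had limma adjusted p values of 0.0113, 0.0106, 0.00793 and 0.00793. *ast-1*, an ETS factor of dopaminergic neurons, changed by -0.86 ± 0.10, and *cfi-1*, an ARID factor, by -0.74 ± 0.08 (limma adjusted p = 0.0146 and 0.0153).

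The calls among genes for adhesion and axon guidance were decreases too. Of 12 cadherins 6 (50%) were lower and 0 higher, with a median of -0.37. Of 52 genes for axon guidance and outgrowth 13 (25%) were lower and 0 higher, and the median was -0.21. *fmi-1*, the flamingo cadherin that guides pioneer and follower axons, had 5.67, 5.74, 5.37, 5.56 and 6.25 in *ahr-1(ju145)*, against 7.38, 6.71, 6.74, 6.57 and 7.66 in wild-type. The groups did not overlap (log2 -1.29 ± 0.12, limma adjusted p = 0.00781). Among guidance ligands, the netrin *unc-6* changed by -0.58 ± 0.07, the TGF-beta family ligand *unc-129* by -0.89 ± 0.12 and the ephrin *efn-2* by -0.68 ± 0.09 (limma adjusted p = 0.0166, 0.0305 and 0.0261). Among receptors, the plexin *plx-2* changed by -0.95 ± 0.09 (limma adjusted p = 0.00781). In the Wnt pathway 3 of 27 genes were lower, the ligands *cwn-1* and *cwn-2* and the Frizzled receptor *cfz-2*, with -0.66 ± 0.06 for *cfz-2* and -0.79 ± 0.13 for *cwn-2* (limma adjusted p = 0.00793 and 0.0514). None of 17 Notch pathway genes passed, and 2 of them were lower at an unadjusted p under 0.05.

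For lists of genes that mark mature neurons, the shares of lower calls can be set beside the 1.68% of all single-symbol probe sets. None of 30 pan-neuronal genes passed, and their median was -0.08. At an unadjusted p under 0.05, 7 were lower and 0 higher (limma), against 6.98% and 6.95% of all probe sets. The mean of this list lay between 6.91 and 7.01 in *ahr-1(ju145)* and between 7.02 and 7.06 in wild-type, narrowly without overlap. For neurons whose fate depends on AHR-1, 1 of 12 oxygen-sensing neuron genes (8.33%) was lower, and it was *unc-86*. The guanylate cyclases *gcy-32*, *gcy-34*, *gcy-35*, *gcy-36* and *gcy-37*, which mark these neurons, did not pass. Of 16 touch receptor neuron genes 2 (12.5%) were lower, *unc-86* and the splicing factor *mec-8*, while the mechanosensory channel genes *mec-4* and *mec-10* did not pass. Of 9 GABA neuron genes 1 was lower, the fate regulator *unc-30*. Of 15 genes for the branched dendrites of PVD neurons, *egl-46* and *dma-1* were lower (13.3%). *dma-1*, the dendrite receptor, had 5.82, 4.84, 5.10, 4.51 and 5.61 in the mutant, against 6.93, 6.35, 6.36, 5.98 and 6.78 in wild-type (log2 -1.30 ± 0.08, limma adjusted p = 0.0029). Each replicate pair differed by a similar amount although both strains varied between replicates. Of 109 neuropeptide genes *nlp-20* was lower and *nlp-26* was higher, of 46 cilium genes *osm-5* was lower, and of 40 insulin-like peptide genes 0 passed. At an unadjusted p under 0.05, 2 insulin-like peptides were higher and 2 lower in limma.

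Heterochronic genes set the order of larval stages, and 8 of 21 (38.1%) were lower and 0 higher. *hbl-1*, a hunchback-like zinc finger factor of early larval programmes, had 8.28, 7.16, 7.54, 7.76 and 8.77 in *ahr-1(ju145)*, against 10.24, 9.52, 9.44, 9.15 and 10.16 in wild-type. It was 3.48-fold lower in the mutant without overlap (log2 -1.80 ± 0.15, limma adjusted p = 0.00623). Of 17 histone genes 5 (29.4%, against 1.68% of all single-symbol probe sets) were lower, among them 4 linker histone genes. The linker histone genes *hil-7* (-1.12 ± 0.09), *hil-3* (-0.81 ± 0.06), *hil-2* (-0.73 ± 0.08) and *his-24* (-0.67 ± 0.06) had limma adjusted p values of 0.00619, 0.00425, 0.0135 and 0.0086. *his-24* had 10.09, 10.02, 9.84, 9.81 and 10.07 in the mutant, against 10.94, 10.64, 10.49, 10.39 and 10.73 in wild-type.

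Detoxification genes are the classical targets of the mammalian receptor. Their shares of calls can be set beside 1.68% lower and 0.435% higher among all single-symbol probe sets. Of 74 cytochrome P450 genes, *cyp-34A1* was lower and *cyp-14A3* was higher (1.35% each). Of 67 UDP-glucuronosyltransferases 2 (2.99%) were lower, *ugt-57* and *ugt-53*, and 0 were higher. *ugt-57* had 6.16, 5.73, 5.57, 5.62 and 6.44 in *ahr-1(ju145)*, against 7.31, 6.74, 6.88, 6.46 and 7.41 in wild-type (log2 -1.06 ± 0.08, limma adjusted p = 0.00476). Other enzymes of this family that were followed by qPCR had positive values and missed the threshold, namely *ugt-29* (0.39 ± 0.08, limma adjusted p = 0.106), *ugt-9* (0.34 ± 0.08, 0.122) and *ugt-45* (0.33 ± 0.08, 0.141). *ugt-45* had 6.31, 6.04, 6.17, 6.12 and 6.29 in the mutant, against 5.74, 5.73, 5.73, 5.87 and 6.19 in wild-type, with overlap through wild-type replicate 5. Of 46 glutathione S-transferases *gst-13* alone (2.17%) was higher, and *gst-4*, a standard reporter of oxidative stress, differed by 0.13 ± 0.11 (limma adjusted p = 0.644). None of 34 short-chain dehydrogenases, 43 ABC transporters, 16 heat shock genes and 21 antioxidant genes passed. At an unadjusted p under 0.05, 7 ABC transporters were higher and 1 was lower in limma. These counts were 5 higher and 4 lower for cytochrome P450 genes, 8 and 4 for UDP-glucuronosyltransferases, and 5 and 1 for glutathione S-transferases.

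Of 276 nuclear hormone receptors 4 (1.45%) were lower and 1 (0.362%) higher, near the shares of all single-symbol probe sets (1.68% and 0.435%). *nhr-91* changed by -0.88 ± 0.11 (limma adjusted p = 0.0202) and *nhr-239* by 0.36 ± 0.07 (limma adjusted p = 0.0751). Among genes of the innate defence, 2 of 248 C-type lectins were lower and 2 higher (0.806% each). Of 96 lysozymes and antimicrobial peptides 1 was lower and 1 higher (1.04% each). At an unadjusted p under 0.05, 26 C-type lectins were higher and 10 lower, and 7 lysozymes and antimicrobial peptides were higher and 6 lower (limma). Over all probe sets, 6.95% were higher and 6.98% lower at that threshold. *clec-78* changed by -1.30 ± 0.13, and the lysozyme gene *lys-7* by -0.59 ± 0.08 (limma adjusted p = 0.00982 and 0.0307). *fipr-10*, an antimicrobial peptide-like gene, was higher by 0.85 ± 0.13 (limma adjusted p = 0.0423), although the strains overlapped on the arrays. None of 42 genes of the mitochondrial respiratory chain and 62 cytosolic ribosomal protein genes passed, and 0 of them had an unadjusted p under 0.05 in limma.

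The decreases were spread over all chromosomes. By the reference gene table, lower calls made up 2.5% of 4920 probe sets on chromosome X, 1.83% on II, 1.72% on III, 1.5% on I, 1.43% on IV and 1.13% of 6091 on V. Higher calls lay between 0.394% and 0.477% on each of these. Of the 20 measured genes nearest to *ahr-1* on chromosome I, 10 on either side, 1 was called. It was *irx-1*, an Iroquois homeobox gene outside the homeobox list above and named after its value was seen, with -0.48 ± 0.08 (limma adjusted p = 0.046). The other 19 ranged from -0.16 to 0.17. Runs of called genes that are neighbours in gene order were found 10 times among the decreases, with 22 genes, and 0 times among the increases. They included the pairs *lpr-3* and *lpr-6*, *lpr-5* and *lpr-4*, *wrt-1* and *wrt-10*, and a run of 4 genes around *ast-1*. Single-symbol probe sets held 428 lower and 111 higher calls, and more calls by themselves give more neighbours. Whether the runs exceed what such numbers give by chance was not tested.

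The arrays with curcumin share no array with the comparison above and hold the same contrast of strains. Replicate 5 of *ahr-1(ju145)* with curcumin was left out, as the methods do. On the remaining arrays, 37 probe sets (0.126%) were lower and 25 (0.0853%) were higher in *ahr-1(ju145)*. With the block, wild-type replicate 5 then had no partner and carried no weight. Of the 471 probe sets that were lower with DMSO, 449 were below 0 with curcumin, 314 had an unadjusted p under 0.05 in that direction and 34 (7.22%) passed the adjusted threshold. Of the 147 that were higher with DMSO, 126 were above 0, 64 had an unadjusted p under 0.05 and 20 (13.6%) passed. With all 10 curcumin arrays, replicate 5 of *ahr-1(ju145)* included and wild-type replicate 5 thereby given weight, 25.3% of the 471 and 15% of the 147 passed. Over all probe sets on the curcumin arrays, 4.56% were lower and 4.27% were higher at an unadjusted p under 0.05. The median log2 fold change of these probe sets with curcumin was -0.39 for the lower and 0.26 for the higher set, each nearer to 0 than with DMSO (-0.49 and 0.27 with all 10 arrays). The sets were chosen on the DMSO arrays, and such a choice by itself favours values farther from 0 there.

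Genes that passed in both sets of arrays included *egl-46* (-1.92 ± 0.18 with curcumin, limma adjusted p = 0.0372), *hbl-1* (-1.67 ± 0.12, 0.0123), *dyf-7* (-1.50 ± 0.19, 0.0923), *dpy-17* (-1.42 ± 0.17, 0.0768), *ugt-57* (-0.86 ± 0.08, 0.0267), *F56A4.3* (1.74 ± 0.12, 0.00914), *B0511.11* (1.56 ± 0.16, 0.0458) and *nhj-1* (1.08 ± 0.08, 0.00987). For *hbl-1* and *F56A4.3* the estimates with and without curcumin lay within 1 SE of each other. Values of *wrt-2* (-0.27 ± 0.11), *lpr-5* (-0.45 ± 0.14), *lpr-4* (-0.56 ± 0.16), *cfi-1* (-0.12 ± 0.13) and *aha-1* (-0.02 ± 0.09) did not pass there. They depended on replicate 5, of which the wild-type array carried no weight while its partner was left out. In each of these genes, wild-type replicate 5 was the highest wild-type curcumin array. For *wrt-2* it had 5.53, against 3.51 to 3.98 on the other wild-type curcumin arrays, and the mutant array left out had 3.70. With replicate 5 of *ahr-1(ju145)* included, which gave wild-type replicate 5 its weight, the changes were -0.59 ± 0.25 for *wrt-2*, -0.85 ± 0.31 for *lpr-5*, -0.88 ± 0.27 for *lpr-4*, -0.26 ± 0.15 for *cfi-1* and -0.13 ± 0.11 for *aha-1*, again without passing. The difference itself was tested as an interaction over 19 arrays and passed for 0 probe sets in limma. The lowest adjusted p was 0.759, and 1240 probe sets (4.23%) had an unadjusted p under 0.05. Among the calls with DMSO, 81 of the lower set (17.2%) and 38 of the higher set (25.9%) were among these 1240, a share that selection on the DMSO arrays raises. So no probe set was shown to respond to the loss of *ahr-1* differently with curcumin than with DMSO.

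**Figure D5:**
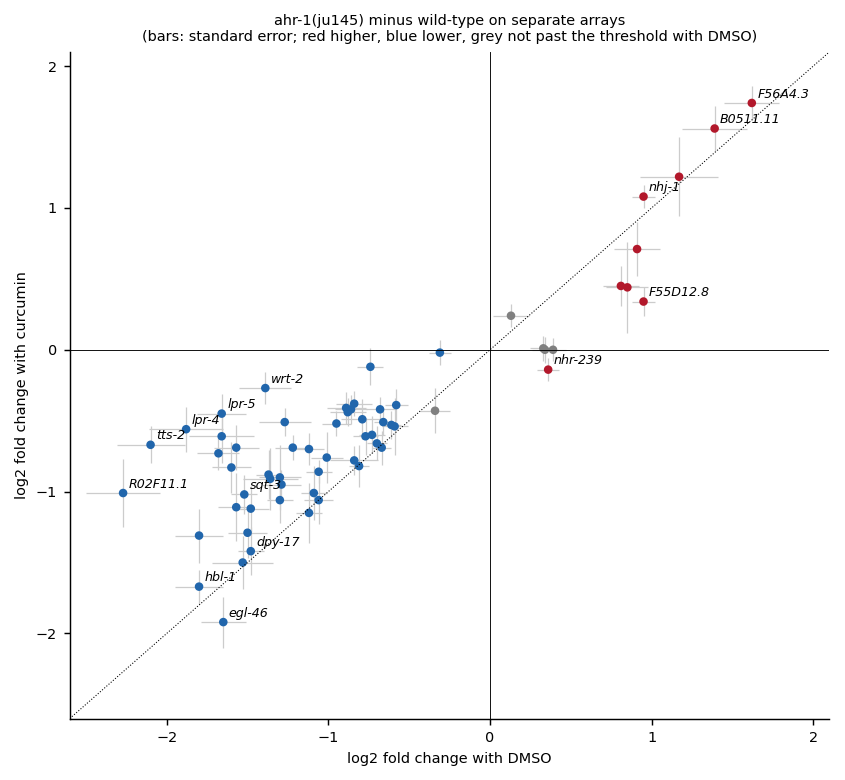
Log2 fold change (*ahr-1(ju145)* minus wild-type) with curcumin (9 arrays) on the vertical axis against that with DMSO on the horizontal axis for the genes given with full statistics, with bars of 1 standard error on both axes. Points are red or blue where the gene was higher or lower with DMSO and grey where it did not pass, and the dotted line marks equal change. Most blue points lie below 0 on both axes and above the dotted line, and *nhr-239* is higher with DMSO and at -0.14 with curcumin.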

How the data were processed

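The deposited series matrix holds log2 RMA values made by the authors with the oligo package in R, with background correction, quantile normalization and one value per probe set. It was used as deposited, with no filter. The deposited tables of the authors' own comparisons hold fold changes and p-values and were not used. No source used here gives the genome build behind the array's annotation, and 25495 of 25546 probe sets with a single symbol were found in the reference gene table (WBcel235), which gave chromosomes and gene order. Array number and spread, not read depth, limit the precision, and log2 differences of RMA values tend to understate changes of dim genes.

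All 29317 probe sets were fitted with limma 3.58.1 in R 4.3.3 with a mean per group and the replicate number of the title as a block (10 arrays, 4 residual and 2.842 prior degrees of freedom), with Benjamini-Hochberg adjustment over all of them. The labels do not say what the replicate numbers mark. Deviations from the group means correlated at 0.274, 0.166, 0.114, 0.431 and 0.334 between arrays of equal number, all over 0.1, and 4 of 5 numbers matched best with themselves, so the numbers were taken to pair the arrays. The curcumin contrast and the interaction were fitted in the same way. List counts take every probe set whose single symbol is in the list, without a choice between probe sets of the same symbol. For the gene order, the first probe set of each gene was used. Simulated arrays with changes of known size served to test the fit.

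The genes given are *ahr-1*, *aha-1*, genes the study followed by qPCR or, for *gst-4*, a reporter, genes with the largest changes without overlap (up to 15 per direction) and, in each of 45 lists, up to 5 called members with the lowest adjusted p. Members that did not pass are named as examples only. The comparison, the lists and the members were chosen with earlier results of these data known. Alternatives covered the block, the arrays in the fit, weights, scaling, trend, filters, thresholds, stage covariates and left-out replicates. Promoter motifs were not analysed here.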

Additional observations from a re-analysis of the deposited data

Results flagged for a closer look

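Among the genes given with full statistics, each strain's 5 arrays with DMSO were examined for a single array far from the rest, in 130 groups of 5 for 65 genes, where chance alone marks about 1 group in 20. In 3 groups, all of *ahr-1(ju145)*, the lowest array was separated by a gap that made up more than 0.71 of the group's range. For *ahr-1* itself, replicate 2 had 4.27 against 4.85 to 4.98 on the other arrays, a gap of 0.816 of the range. For *unc-86*, the same replicate had 4.18 against 4.53 to 4.64 (0.758). For *cfi-1*, replicate 3 had 4.93 against 5.05 to 5.07 (0.813), where the whole range is narrow.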

How the results depend on the processing

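With no replicate block on the same 10 arrays, 98 probe sets were higher and 306 lower, against 147 and 471 with the replicate block, and 77 and 285 of them were shared. The counts also moved with a replicate block over 20 arrays (302 higher), limma's trend and robust options (445 higher, 923 lower), a filter on dim probe sets (315 and 754), an adjusted p under 0.05 (60 and 280), a log2 change of at least 0.5 (60 and 310), the embryo markers as a covariate (3 and 12) and the molting genes as a covariate (0 and 0). The molting mean did not overlap between the strains, and the median standard error was 1.22 with it, 0.188 with the embryo covariate and 0.0882 without. The molting fit was run for all probe sets, but its values of single genes were left aside. Leaving out replicates with their partners gave 35 to 74 higher and 173 to 339 lower, and leaving out single arrays with no block gave 30 to 75 higher and 65 to 360 lower, the fewest without *ahr-1(ju145)* replicate 3. On the curcumin arrays, all 10 arrays gave 56 higher and 150 lower, and no block gave 15 lower. The cause of these shifts was not tested. No replicate block or array choice gave a call in the interaction (0 in each). Of 1675 values of the 60 called genes given with full statistics, 1377 kept their direction and call, 298 kept the direction only and 0 reversed. The molting covariate is not part of these values. Of these genes 22 passed in every counted setting, with the embryo covariate and the adjusted p under 0.05 set aside.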
